A study of Rattus norvegicus with 39 samples.

Results

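The polyribosome-bound mRNA of D1-MSNs was compared with that of D2-MSNs in the nucleus accumbens (NAc) of saline-treated female rats in diestrus. All IP libraries of those rats were taken by their labels, which gave 5 D1 and 5 D2 libraries, 10 of the 39 libraries analyzed. The D1 libraries carry the numbers 3, 11, 19, 27 and 35 and the D2 libraries the numbers 7, 15, 23, 31 and 39, and values below follow these orders. Each library came from 1 rat, so that libraries within a group are separate animals.

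Both groups were adult Long–Evans females, heterozygous for a Cre transgene and labeled D1-Cre or D2-Cre. Cre was driven by Drd1a sequences in the first line and by Drd2 sequences in the second, and an AAV9 RiboTag vector, which makes an HA-tagged ribosomal protein Rpl22 and EYFP after Cre recombination, was infused into the NAc of every rat. The tag therefore marks each infected cell that uses the transgene's promoter, interneurons included. After a first test session that also followed a saline injection, rats of both groups received 6 saline treatments in diestrus, every 4 to 5 days, and were killed 4 days after the last injection, 30 min after they had been returned to the test context. In the other groups used below, proestrus saline rats were treated in proestrus, and diestrus ketamine rats received 10 mg/kg ketamine in place of the saline treatments. The sequenced ketamine rats had also been selected for a rise in locomotor activity over the treatments. Because each cell type comes from its own transgenic line, cell type and line cannot be told apart in any D1 to D2 comparison.

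Medium spiny neurons (MSNs) are the GABAergic projection neurons of the striatum. D1-MSNs carry the Gs/Golf-coupled D1 receptor with the peptides dynorphin and substance P, and D2-MSNs carry the Gi/o-coupled D2 receptor with enkephalin. D2-MSNs also carry the adenosine receptor encoded by Adora2a, which raises cAMP through Golf and opposes the D2 receptor. Polyribosomes pulled down through the tag hold mRNAs in translation, so the values describe the translatome of the tagged cells together with any RNA that came along in the IP. In such bulk samples, fewer cells of a type and less RNA per cell cannot be told apart.

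The deposited table gives 23978 genes by Ensembl identifier, and 1962 of these are used here with a symbol. Adora2a was the only D2-MSN marker among them. None of the 9 D1-MSN markers was (Drd1, Pdyn and Tac1 among them), so the D1 label could be checked only through low Adora2a, and these markers were not analyzed here by name. Levels are CPM (counts scaled to library size) after TMM scaling and are not scaled for transcript length, so that they were compared between libraries and never between genes. Log2 fold changes are D2 minus D1, so that positive values mark a D2 bias and negative values a D1 bias. They come from edgeR's quasi-likelihood test with 2 surrogate variables, and a gene was called DE at a Benjamini-Hochberg adjusted p under 0.1. Calls in edgeR refer to this fit of all 10 libraries unless another is named.

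Libraries 39 and 7 of the D2 group stood apart. Library 39 held 2396517 counts, while the other D2 libraries held 21011366 to 22271752 and the D1 libraries 18271271 to 23530675. A single count in library 39 equals 0.416 CPM, and low genes there rest on few reads. Library 7 had normal depth and higher glial and vascular transcripts. Its summed level of 5 astrocyte markers (Gfap, S100b, Gja1, Fabp7 and Sox9) was 249.6 CPM, against 127 to 140.3 in the other D2 libraries and 115 to 141 in the D1 libraries. The sum of the oligodendrocyte markers Mog and Gjc3 was 27.0 CPM in library 7, 11.4 to 14.6 in the other D2 libraries and 9.19 to 15.0 in the D1 libraries. The sum of 4 endothelial, mural and fibroblast markers (Flt1, Rgs5, Col1a1 and Col3a1) was 32.7 CPM in library 7, 7.33 to 12.9 in the other D2 libraries and 5.62 to 8.52 in the D1 libraries. The pair of oligodendrocyte precursor markers (Pdgfra and C1ql1) summed to 14.7 CPM in library 7, 5.96 to 8.75 in the other D2 libraries and 8.30 to 12.1 in the D1 libraries. The 4 microglia markers (Aif1, Tmem119, Ptprc and Ly86) summed to 1.63 to 2.80 CPM in D1 and 1.44 to 6.25 CPM in D2 libraries, where library 39 was highest. None of these glial and vascular markers was called in edgeR with 2 surrogate variables and all 10 libraries, while 1 vascular marker was called with a D2 bias without library 39, as was 1 without surrogate variables. Apart from library 7, the D1 and D2 sums overlapped for each list, though 3 of the 5 D2 libraries, library 7 among them, had a vascular sum above every D1 library. Sox9, an astrocyte factor, was higher in every D2 library (2.36 to 3.02 CPM in D1, 3.21 to 5.64 CPM in D2) and was not called. Without surrogate variables all 5 astrocyte, both oligodendrocyte and all 4 vascular markers had fitted values on the D2 side (medians 0.55, 0.44 and 1.06). The part of these cells in the differences below was not tested, and values without library 7 are given beside the genes described below that gained or lost a call without it. The surrogate variables took up the same libraries, as the first set library 39 and the second library 7 apart from the rest. The markers shared by both MSN types (Gad1, Rgs9 and Adcy5) summed to 2074 to 2335 CPM in D1 and 2238 to 2358 CPM in D2 libraries, with library 7 and library 39 inside that range.

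**Figure D1:**
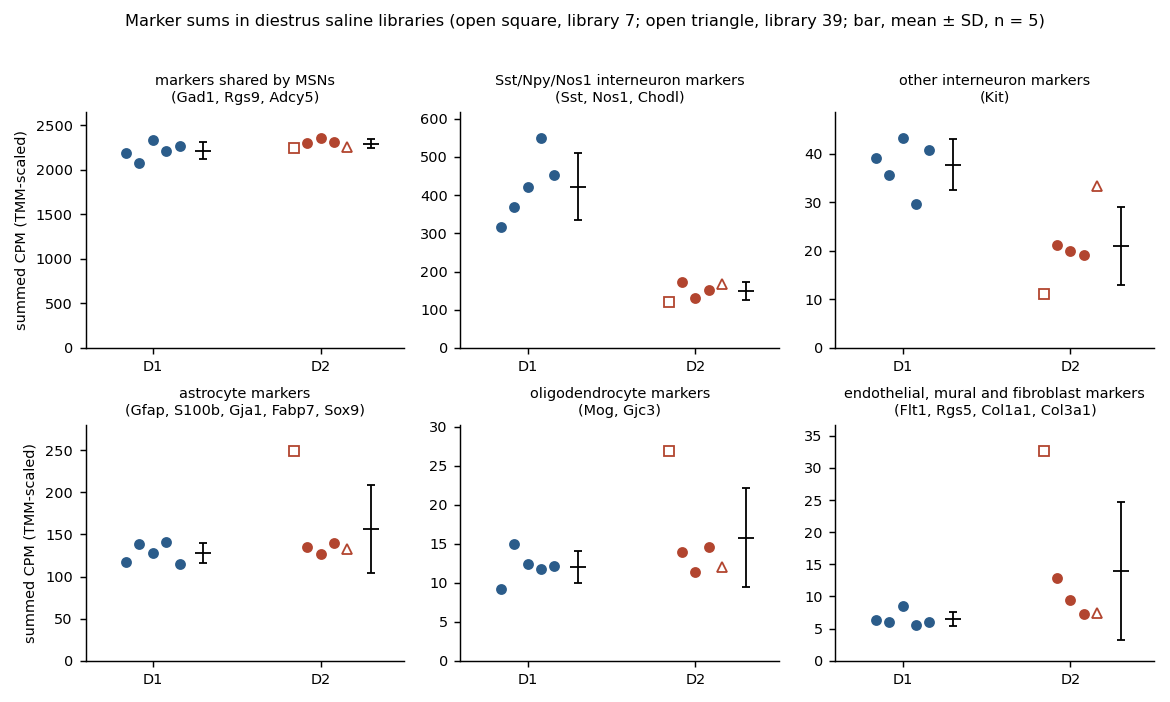
Summed CPM (vertical axes, from 0) of 6 marker lists in the 5 D1 (blue) and 5 D2 (red) diestrus saline libraries, each point being 1 rat and the bars mean ± SD. Library 7 (open square) lies above all others for astrocyte, oligodendrocyte and vascular markers, while the sum of Sst, Nos1 and Chodl is 317 to 550.5 CPM in D1 and 120.4 to 173 CPM in D2 libraries.

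DE genes made up 4.11% of the 13292 tested, with 316 higher in D1-MSNs (2.38%) and 230 higher in D2-MSNs (1.73%). Differences were mostly small. The median size was 0.55 on the log2 scale for D1-biased genes and 0.60 for D2-biased genes, 139 and 94 of them differed by under 0.5, and 82 and 54 by over 1. The D1 side reached further, with 23 genes over 2 on the log2 scale against 9 on the D2 side. The libraries did not overlap in CPM for 210 of the D1-biased and 145 of the D2-biased genes. Over all genes tested, every D1 library lay above every D2 library for 3.11% and every D2 library above every D1 library for 2.85%. Without library 39, 6.90% of 13414 genes were called, 556 D1-biased and 369 D2-biased, among them 308 of the 316 and 220 of the 230. Without surrogate variables 8.10% were called, among them 270 and 194 of these genes. Leaving out library 23 or library 31 lowered the calls to 273 and 308. Leaving out libraries 7 and 39 together, with no surrogate variable, 303 of the 316 and 208 of the 230 were called. The 2 surrogate variables already set these libraries apart, so that fits without library 39 or library 7 are weak checks of the calls.

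**Figure D2:**
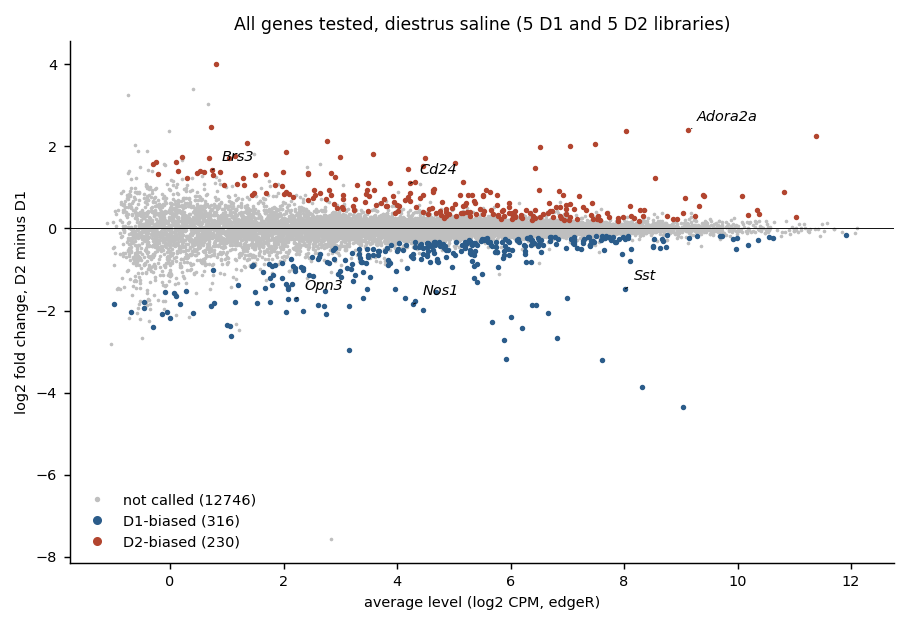
Log2 fold change, D2 minus D1 (vertical axis), against the average level in log2 CPM (horizontal axis) for the 13292 genes tested, each point being 1 gene. Called genes (316 D1-biased in blue, 230 D2-biased in red) are spread over the range of levels, with Adora2a among the most D2-biased.

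Among the 1508 tested genes with a symbol, 47 were called (3.12%), 28 D1-biased and 19 D2-biased. These 47 are described below by role. Of the 19, 12 showed no overlap between groups, as did 18 of the 28. All 47 kept their call without library 39. That is a weak check, because the first surrogate variable already set this library apart in the fit of all 10. Without surrogate variables, 24 of the 28 and 14 of the 19 kept it. In each of 10 fits that left out 1 library, the call held for 12 D1-biased genes (Lgals3bp, Nek7, Chodl, Opn3, Rasal1, Kit, Lypd1, Pde9a, Nos1, Aacs, Carhsp1 and Usp25) and 6 D2-biased genes (Adora2a, Plxdc2, Map3k20, Tesc, Atg3 and Brs3). The other 29 lost it without at least 1 library, 26 of them without library 23 and 21 without library 31. Library 23 alone decided the calls of Sst (adjusted p = 0.105 without it), Fig4 (0.115), Dlx1 (0.131), Adora1 (0.176) and Lnx1 (0.204), and library 31 alone those of Cd24 (0.127) and Ccdc80 (0.234). Rgs8 (0.192 without library 23 and 0.108 without library 31), Mmd (0.232 and 0.174) and Septin9 (0.181 and 0.132) depended on both. The rest lost their call without 2 to 7 different libraries.

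Adenosine receptors were D2-biased. Adora2a had 208, 149.8, 173, 190.0 and 149 CPM in the D1 libraries and 1030.5, 945, 951, 999 and 817 CPM in the D2 libraries. The groups were far apart, and library 39 was the lowest of the D2 libraries. Mean levels were 174 ± 25.7 and 949 ± 81.5 CPM (SD, n = 5), a log2 fold change of 2.4 (SE 0.101, edgeR adjusted p = 2.47e-07) or 5.28-fold, and 2.38 without library 39. Adora1 encodes the Gi-coupled adenosine receptor, which is widespread in the brain and lowers cAMP. It had 105, 106, 113, 122 and 114 CPM in D1 and 137, 146, 154, 132 and 133 CPM in D2 libraries, again without overlap but with a far smaller gap. Its log2 fold change was 0.34 (SE 0.0709, edgeR adjusted p = 0.0193), and 0.34 without library 39. The call held in 9 of the 10 fits that each left out 1 library. Adora2b was too low to test, and the dopamine and muscarinic receptors were not among the genes with a symbol.

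The intracellular regulators of these receptors were more mixed. Rgs8 speeds GTP hydrolysis on Gi/o alpha subunits and so shortens their signaling. Its levels were 167, 153, 175, 179 and 172 CPM in D1 and 189, 201, 217, 206 and 206 CPM in D2 libraries, with every D2 library above every D1 library. The log2 fold change was 0.30 (SE 0.0627, edgeR adjusted p = 0.0223), and 0.26 without library 39. In edgeR Rgs8 was called and the other 4 of the 5 RGS genes tested were not, and the median log2 fold change of the 5 was 0.19 against 0.001 over all genes. The fit without library 39 and DESeq2 with 2 surrogate variables each called 2 of the 5, and edgeR without surrogate variables called 3. Rgs2, which acts mainly on Gq, was also higher in every D2 library (137 to 216 CPM in D1, 219 to 263 CPM in D2) but did not pass the test in edgeR (log2 fold change 0.40, adjusted p = 0.182). Rgs2 passed without library 39 (0.36, adjusted p = 0.0868), without library 7 (0.31, adjusted p = 0.0271) and without surrogate variables (0.41, adjusted p = 0.0285). Rgs9, the striatum-enriched family member, had 269.8 to 347 CPM in D1 and 319.8 to 413 CPM in D2 libraries (adjusted p = 0.32). Without surrogate variables Rgs9 was called (0.26, adjusted p = 0.0878), and without library 39 it was not (0.20, adjusted p = 0.151). Rgs4 leaned the other way, at 147 to 251 CPM in D1 and 127 to 184 CPM in D2 libraries (adjusted p = 0.365).

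Of 7 genes of cAMP and G-protein signaling, only Pde9a was called in edgeR, and the median of the 7 was -0.02. Pde9a encodes a phosphodiesterase that breaks down cGMP. Its levels were 37.3, 34.8, 28.2, 28.4 and 29.5 CPM in D1 and 25.9, 19.2, 17.3, 19.8 and 18.7 CPM in D2 libraries. Library 7 was the highest of the D2 libraries and still lay below every D1 library. The log2 fold change was -0.81 (SE 0.127, edgeR adjusted p = 0.00298), -0.76 without library 39 and -0.72 without library 7. Gnaz, the alpha subunit of the pertussis toxin-insensitive inhibitory protein Gz, was higher in every D1 library (37.7 to 45.9 CPM against 31.7 to 37.1 CPM) and was not called (log2 fold change -0.29, edgeR adjusted p = 0.112). Gnaz was called without library 39 (-0.30, adjusted p = 0.054), without surrogate variables (adjusted p = 0.0275), in proestrus saline (-0.28, adjusted p = 0.0709) and in diestrus ketamine (-0.24, adjusted p = 0.014). Adcy5, the main striatal adenylyl cyclase, ranged over 627 to 871 CPM in D1 and 742 to 889 CPM in D2 libraries.

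Markers of somatostatin interneurons were D1-biased together. These cells, also known for neuropeptide Y and nitric oxide synthase, are sparse GABAergic interneurons of the striatum. Of their 4 markers, 3 were among the genes used here with a symbol, and all 3 were called. Sst, the peptide somatostatin, had 284, 339.6, 377, 508 and 402 CPM in D1 and 109, 161, 117, 136 and 149.9 CPM in D2 libraries. Nos1, the neuronal nitric oxide synthase, had 25.1, 18.7, 32.8, 30.7 and 40.7 CPM in D1 and 6.98, 7.52, 7.45, 8.76 and 12.9 CPM in D2 libraries. Chodl, a lectin-domain membrane protein that marks long-range cells of this class, had 8.59, 10.6, 10.8, 11.5 and 10.2 CPM in D1 and 4.21, 4.13, 4.97, 5.12 and 5.41 CPM in D2 libraries. For each of the 3 genes, every D1 library lay above every D2 library, and library 39 was the highest D2 library for Nos1 and Chodl.

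Nos1 showed the largest of the 3 differences, with a log2 fold change of -1.84 (SE 0.255, edgeR adjusted p = 0.00341), and -1.95 without library 39. The value for Sst was -1.47 (SE 0.223, edgeR adjusted p = 0.0131), and -1.47 without library 39 (adjusted p = 0.038). With 1 library left out in turn the Sst call held in 9 of 10 fits, and the highest adjusted p was 0.105. Chodl differed by -1.11 (SE 0.151, edgeR adjusted p = 9.89e-04), and by -1.11 without library 39. The D1 libraries themselves spread over a range, from 284 to 508 CPM for Sst and from 18.7 to 40.7 CPM for Nos1. The same 3 genes were called with a D1 bias in proestrus saline (log2 fold changes -1.35 for Sst, -1.27 for Nos1 and -1.03 for Chodl) and in diestrus ketamine (-1.58, -2.23 and -1.43), which use other rats. Whether these transcripts came from tagged interneurons or from RNA carried along in the IP was not tested.

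Kit, the receptor tyrosine kinase for stem cell factor and a marker of other striatal interneurons, was D1-biased too. It had 39.1, 35.6, 43.3, 29.7 and 40.7 CPM in D1 and 11.1, 21.2, 20.1, 19.2 and 33.3 CPM in D2 libraries. Library 39 reached into the D1 range and the other D2 libraries lay below it. The log2 fold change was -0.70 (SE 0.104, edgeR adjusted p = 0.00181), and -0.85 (adjusted p = 6.27e-05) without library 39. Unlike the 3 genes above, Kit was not called in proestrus saline (-0.48, adjusted p = 0.281), though the difference between stages was itself not called. No marker of cholinergic interneurons or of glutamatergic neurons was among the genes used here with a symbol.

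The promoters of Sst and Nos1 share the palindromic cAMP response element TGACGTCA, which the transcription factor CREB binds. The windows are shown because both genes are D1-biased interneuron transcripts and were the only matches among the 41 called genes that had a symbol and a promoter entry. They are RefSeq sequences of build GRCr8, the match is in capitals, and each is 28 bases long.
Nos1: gacgccaagtTGACGTCAaagacagagg
Sst: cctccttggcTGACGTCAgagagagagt
The Nos1 window is chr12:44371829-44371856 on the minus strand, with the match starting 9 bases upstream of the annotated start. The Sst window is chr11:90461538-90461565 on the plus strand, with the match starting at base 3 of the annotated transcript. The letters were searched from 250 bases before to 50 bases after each start, and since they are their own reverse complement 1 strand covers both. They occurred in 525 of 27457 promoters (1.91%), in 2 of the 24 D1-biased genes with a symbol that had a promoter entry and in 0 of the 17 D2-biased ones. Chodl and Kit, the other called interneuron markers, had a promoter entry and no match. A match describes the letters of the window only.

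Of 6 transcription factors of the striatal lineage tested, 2 were called with a D1 bias in edgeR and 4 were not. All 6 had a fitted value below 0, with a median of -0.41. Dlx1, a homeobox factor of GABAergic interneuron development, had 21.0, 23.0, 21.5, 24.5 and 26.6 CPM in D1 and 12.9, 17.0, 12.4, 14.3 and 23.7 CPM in D2 libraries. As with Kit, library 39 was the D2 library that reached into the D1 range. The log2 fold change was -0.62 (SE 0.125, edgeR adjusted p = 0.0169), and -0.64 without library 39. Nfix, a factor of the nuclear factor I family that acts in neural differentiation, had 3.26, 3.06, 3.13, 3.66 and 3.37 CPM in D1 and 1.94, 2.41, 1.58, 1.34 and 2.50 CPM in D2 libraries, where the value of library 39 rests on 6 counts. Its log2 fold change was -0.92 (SE 0.244, edgeR adjusted p = 0.0725), and its call held in 5 of 10 fits with a library left out. The related Dlx2 had 7.2 to 9.79 CPM in D1 and 6.96 to 7.90 CPM in D2 libraries and was not called.

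Immediate early genes, which neurons induce within minutes of activity, had fitted values on the D2 side without a call. Of 6 tested, 0 were called in edgeR and 2 had an unadjusted p under 0.05. All 6 fitted values were above 0, as were 6690 of the 13292 genes tested, and the median of the 6 was 0.48. Without library 39 or without surrogate variables, 5 of the 6 were above 0. DESeq2 with 2 surrogate variables called 1 of them. Sik1, a salt-inducible kinase that cAMP signaling induces, had 13.5, 8.59, 10.7, 15.0 and 15.6 CPM in D1 and 17.7, 17.2, 19.0, 20.3 and 18.3 CPM in D2 libraries. No D1 library reached the lowest D2 library, yet the edgeR adjusted p was 0.196 (log2 fold change 0.55), and it was 0.0394 without surrogate variables. Ptgs2, the inducible cyclooxygenase, overlapped between groups (6.92 to 16.1 CPM in D1, 8.33 to 18.2 CPM in D2, adjusted p = 0.331). Egr2, a zinc finger factor, ranged over 4.49 to 16.5 CPM in D1 and 14.6 to 27.9 CPM in D2 libraries and did not pass the test (adjusted p = 0.425). For Sik1, Ptgs2 and Egr2 alike, library 11 of the D1 group was the lowest of all libraries.

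**Figure D3:**
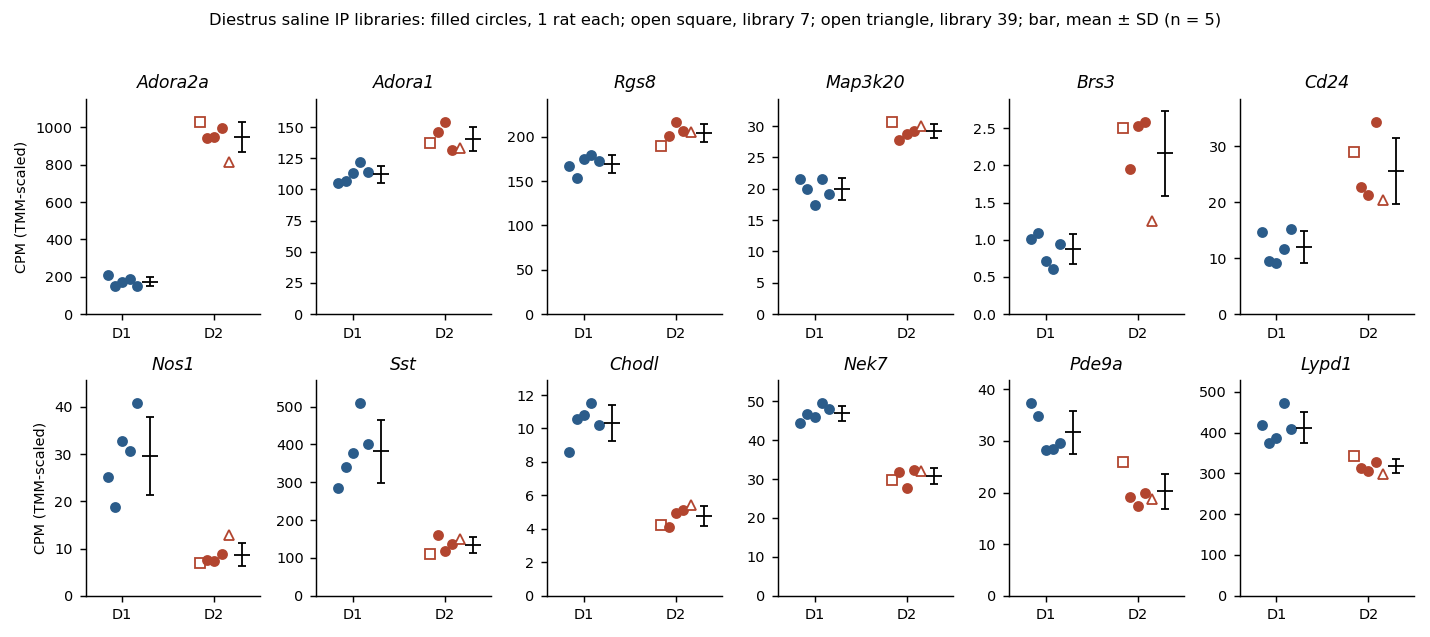
CPM of 12 called genes (vertical axes, from 0) in the 5 D1 (blue) and 5 D2 (red) diestrus saline libraries, each point being 1 rat and the bars mean ± SD. The groups are separate in all 12 panels, with the widest gap for Adora2a (149 to 208 CPM in D1, 817 to 1031 CPM in D2), and library 39 (open triangle) is the D2 library nearest to the D1 libraries for Adora2a, Nos1 and Brs3 among others.

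The MAP kinase cascade held a gene on each side. Map3k20 encodes ZAK, an upstream kinase that senses stalled ribosomes and activates JNK and p38. Its levels were 21.5, 20.0, 17.5, 21.5 and 19.2 CPM in D1 and 30.7, 27.8, 28.8, 29.2 and 30.0 CPM in D2 libraries. The D2 libraries were tightly grouped above all D1 libraries, and the log2 fold change was 0.48 (SE 0.086, edgeR adjusted p = 0.00724), the same without library 39. Mapk9, a JNK that lies downstream in that cascade, was D1-biased by -0.18 (adjusted p = 0.0742), with 202 to 217 CPM in D1 and 173 to 195 CPM in D2 libraries. Mapk9 held its call in 6 of 10 fits with a library left out, and Map3k20 in all of them. Of the other 5 members tested, 0 were called in edgeR and 0 had an unadjusted p under 0.05, and DESeq2 with 2 surrogate variables also called 1 gene of the 7 in each direction. Map2k4, a kinase that activates JNK, had 71.4 to 79.2 CPM in D1 and 60.2 to 84.1 CPM in D2 libraries.

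Further D2-biased genes were receptors, membrane proteins and regulators. Tesc, tescalcin, an EF-hand calcium-binding protein, had 57.5, 50.1, 59.7, 63.4 and 55.6 CPM in D1 and 83.7, 82.7, 80.1, 75.3 and 66.2 CPM in D2 libraries. The groups did not overlap, and the log2 fold change was 0.41 (SE 0.0741, edgeR adjusted p = 0.00746). Fig4, a phosphatase of the endolysosomal lipid PI(3,5)P2, had 83.4, 65.7, 79.0, 67.6 and 71.9 CPM in D1 and 99.8, 97.2, 108, 97.6 and 100.4 CPM in D2 libraries and differed by 0.45 (SE 0.0858, adjusted p = 0.0115), also without overlap. Plxdc2, a plexin-domain transmembrane protein, had 7.48, 9.22, 7.42, 7.08 and 8.00 CPM in D1 and 8.92, 11.8, 12.2, 12.1 and 13.7 CPM in D2 libraries. Here library 7 lay among the D1 libraries and the other D2 libraries above them, with a log2 fold change of 0.72 (SE 0.114, adjusted p = 0.00308). Mmd, a PAQR-family membrane protein, was higher in every D2 library (178 to 210.1 CPM in D1, 219 to 243 CPM in D2) by 0.27 (adjusted p = 0.0307). Rasgef1b, a Ras-family exchange factor, was likewise higher in every D2 library (28.7 to 35.5 CPM in D1, 38.7 to 49.6 CPM in D2) by 0.40 (adjusted p = 0.0555).

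Larger D2-biased differences were found for Cd24, Brs3 and Ccdc80. Cd24, a small glycoprotein held in the membrane by a GPI anchor, had 14.6, 9.43, 9.18, 11.5 and 15.2 CPM in D1 and 29.0, 22.6, 21.3, 34.3 and 20.4 CPM in D2 libraries. No D1 library reached the lowest D2 library, which was library 39, and the log2 fold change was 1.1 (SE 0.226, edgeR adjusted p = 0.0333). Brs3, an orphan G-protein-coupled receptor of the bombesin family, had 1.00, 1.09, 0.714, 0.602 and 0.948 CPM in D1 and 2.50, 1.95, 2.53, 2.59 and 1.25 CPM in D2 libraries. Ccdc80, a secreted matrix protein, had 0.854, 0.797, 0.824, 1.1 and 0.632 CPM in D1 and 3.01, 2.23, 1.63, 3.02 and 1.25 CPM in D2 libraries. In both genes the groups did not overlap and the value of library 39 rests on 3 counts. Without that library Brs3 differed by 1.47 (adjusted p = 0.00945) in place of 1.42 (adjusted p = 0.0151), and Ccdc80 by 1.41 (adjusted p = 0.0131) in place of 1.31 (adjusted p = 0.031).

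Several D2-biased genes were not called when all 10 libraries were fitted without surrogate variables. Atg3, the conjugating enzyme of autophagosome formation, had 53.0, 56.8, 48.1, 48.5 and 53.9 CPM in D1 and 45.0, 61.7, 63.7, 60.5 and 58.3 CPM in D2 libraries. Library 7 was the lowest of all and the other D2 libraries the highest. The log2 fold change was 0.33 (edgeR adjusted p = 0.015) and, without surrogate variables, 0.15 (adjusted p = 0.38). Psph, the last enzyme of serine synthesis, had 9.74 to 10.6 CPM in D1 and 8.75 to 14 CPM in D2 libraries and lost its call in the same way (adjusted p = 0.0583 and 0.278). So did Utp18, a factor of ribosomal RNA processing, at 21.7 to 25.3 CPM in D1 and 23.9 to 31.4 CPM in D2 libraries (adjusted p = 0.0461 and 0.113). Slc35f1, an orphan member of the nucleotide sugar transporter family, was the only one of 33 solute carrier genes called in edgeR with 2 surrogate variables (0.22, adjusted p = 0.0979). It lost its call without surrogate variables (0.11, adjusted p = 0.344) and without library 7 (0.17, adjusted p = 0.177) and held it without library 39 (0.17, adjusted p = 0.0728). DESeq2 with 2 surrogate variables called 2 of the 33, both D2-biased, as did edgeR without surrogate variables, where Slc35f1 was not among them. Without library 39, edgeR called 2 D1-biased and 1 D2-biased. Without libraries 7 and 39 and with no surrogate variable, all 4 of these genes were called, Atg3 at 0.25 (adjusted p = 0.0536), Psph at 0.39 (0.034), Utp18 at 0.35 (0.0213) and Slc35f1 at 0.18 (0.0962). In that fit all 19 D2-biased and 26 of the 28 D1-biased genes with a symbol were called.

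Further D1-biased genes included kinases, Ras regulators and surface proteins. Nek7, a NIMA-related kinase, had 44.3, 46.7, 45.9, 49.4 and 48.1 CPM in D1 and 29.6, 31.9, 27.6, 32.4 and 32.1 CPM in D2 libraries. The libraries of each group were closely grouped and wide apart from the other group, and the log2 fold change was -0.61 (SE 0.0774, edgeR adjusted p = 6.09e-04). Opn3, an opsin of the brain, had 6.23, 5.53, 8.35, 7.13 and 4.26 CPM in D1 and 3.79, 2.69, 1.94, 2.01 and 1.25 CPM in D2 libraries, with library 7 the nearest to D1 and 3 counts in library 39. Its log2 fold change was -1.71 (SE 0.241, adjusted p = 0.00127), second in size to Nos1 among D1-biased genes with a symbol. Lgals3bp, a secreted galectin-binding glycoprotein, had 13.8, 12.2, 14, 13.0 and 12.1 CPM in D1 and 9.76, 6.78, 5.92, 7.09 and 8.75 CPM in D2 libraries. The groups did not overlap, and it had the lowest adjusted p of the D1-biased genes with a symbol (3.14e-04, log2 fold change -1.05, SE 0.123). Neither in proestrus saline (-0.34, adjusted p = 0.499) nor in diestrus ketamine (-0.26, adjusted p = 0.452) was Lgals3bp called.

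Rasal1, a Ras GTPase-activating protein, had 98.7, 82.4, 82.2, 81.4 and 84.2 CPM in D1 and 78.2, 60.0, 60.6, 62.0 and 68.7 CPM in D2 libraries, with library 7 the highest of the D2 libraries. It differed by -0.55 (SE 0.0773, edgeR adjusted p = 0.0013). Lypd1, a GPI-anchored protein that binds nicotinic acetylcholine receptors, had 418, 374, 387, 471 and 409 CPM in D1 and 342, 314, 306, 329 and 299 CPM in D2 libraries. Every D1 library lay above every D2 library, and the difference was -0.44 (SE 0.067, adjusted p = 0.00244). Septin9, a cytoskeletal GTP-binding protein, and Usp25, a deubiquitinating enzyme, overlapped between groups through library 39 alone. Septin9 was 58.7 CPM there and at most 46.5 CPM in the other D2 libraries, against 55.8 to 73.5 CPM in D1 libraries (log2 fold change -0.46, adjusted p = 0.019). Usp25 was 40.8 CPM in library 39 and at most 32.6 CPM in the other D2 libraries, against 38.7 to 41.1 CPM in D1 libraries (-0.32, adjusted p = 0.0169). Carhsp1, an RNA-binding cold-shock-domain protein, was 72.1 to 91.1 CPM in D1 and 58.8 to 82.3 CPM in D2 libraries, where library 7 was highest (-0.44, adjusted p = 0.0101). Aacs, which activates acetoacetate for lipid synthesis, had 43.3 CPM in library 7, above every D1 library (34.9 to 42.6 CPM), and 29.2 to 32.5 CPM in the other D2 libraries. Its call (log2 fold change -0.47, adjusted p = 0.00877) was lost without surrogate variables (-0.24, adjusted p = 0.21) and held without library 7 (-0.39, adjusted p = 0.0139).

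Among ligand-gated receptor subunits with a symbol, a single one was called in edgeR. The full lists hold 27 glutamate and 21 GABA receptor genes, and those without a symbol were not analyzed by name. Grik2, of the kainate receptors, was that gene, 1 of 4 glutamate receptor genes tested. Its levels were 92.6, 81.0, 94.0, 88.4 and 98.2 CPM in D1 and 77.0, 68.4, 80.5, 73.0 and 76.2 CPM in D2 libraries. The groups were separate by a narrow gap, and the log2 fold change was -0.31 (SE 0.0781, edgeR adjusted p = 0.0605), and -0.34 without library 39. Grik1, another kainate subunit, had 12.9 to 21.3 CPM in D1 and 8.42 to 14.4 CPM in D2 libraries and was not called (-0.40, adjusted p = 0.288). Grik1 was called without library 39 (-0.38, adjusted p = 0.078) and without surrogate variables (-0.66, adjusted p = 0.0283). Of 8 GABA receptor genes tested, 0 were called in edgeR or in DESeq2 with 2 surrogate variables, and 1 had an unadjusted p under 0.05. That was Gabra4, a subunit of extrasynaptic receptors, with 60.2 to 90.5 CPM in D1 and 90.9 to 107 CPM in D2 libraries and no overlap (log2 fold change 0.28, adjusted p = 0.384).

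Of 5 potassium channel genes, 0 were called in edgeR, 2 had an unadjusted p under 0.05 and DESeq2 with 2 surrogate variables called 2. Kcnk2, the leak channel TREK, had 159.9, 136, 159, 181 and 137 CPM in D1 and 237, 183, 200.3, 215 and 179 CPM in D2 libraries. Only library 39 was within the D1 range, and the log2 fold change was 0.28 (edgeR adjusted p = 0.116), or 0.29 (adjusted p = 0.0405) without that library, 0.25 (adjusted p = 0.036) without library 7 and 0.40 (adjusted p = 0.0229) without surrogate variables. Kcnj6, a GIRK channel opened by Gi/o-coupled receptors, leaned to D1, with 12.4, 18.7, 14.2, 16.1 and 19.4 CPM in D1 and 12.1, 12.7, 8.49, 8.14 and 10.4 CPM in D2 libraries. The fitted difference was -0.72 (adjusted p = 0.123), and -0.62 (adjusted p = 0.0241) without library 39 and -0.64 (adjusted p = 0.0293) without surrogate variables. Of 4 calcium channel genes, 0 were called in either tool and 0 had an unadjusted p under 0.05.

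Steroid and endocannabinoid genes were thinly covered. Of 3 tested genes of steroid signaling, 0 were called in edgeR or in DESeq2 with 2 surrogate variables and 1 had an unadjusted p under 0.05. That was Cyp19a1, the aromatase that makes estradiol, with 3.87, 2.93, 2.53, 3.46 and 1.26 CPM in D1 and 0.694, 2.04, 0.949, 0.766 and 0.00 CPM in D2 libraries. The groups overlapped, with 0 counts in library 39, and the adjusted p was 0.196, or 0.0592 without surrogate variables. In diestrus ketamine Cyp19a1 was called with a D1 bias (log2 fold change -1.88, adjusted p = 2.77e-04). Of 2 endocannabinoid genes, 0 were called in either tool with 2 surrogate variables and 1 had an unadjusted p under 0.05. Daglb, a diacylglycerol lipase, was 21.7 to 25.3 CPM in D1 and 14.2 to 21.7 CPM in D2 libraries without overlap (adjusted p = 0.28, or 0.0763 without surrogate variables).

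The collagens Col11a2 and Col3a1 were highest in library 7. Of 13 collagen, laminin and integrin genes, 0 were called in edgeR, 2 had an unadjusted p under 0.05 and DESeq2 with 2 surrogate variables called 1. Without library 39, edgeR called 2, both D2-biased, which were Col11a2 and Col3a1, and without surrogate variables it called 1 D1-biased and 2 D2-biased genes. Col11a2, a fibrillar collagen chain, had 12.3, 12.6, 11.8, 13.7 and 10.9 CPM in D1 and 65.1, 23.1, 24.7, 15.1 and 12.5 CPM in D2 libraries. Col3a1, a collagen of fibroblasts and vessel walls, had 1.00, 1.43, 1.65, 1.96 and 0.632 CPM in D1 and 14.3, 4.69, 2.94, 1.77 and 2.08 CPM in D2 libraries. In both, library 7 stood far above all others. The fitted difference of Col11a2 was 0.45 with and 1.27 without surrogate variables (adjusted p = 0.177 and 0.116), and that of Col3a1 0.79 and 2.04 (adjusted p = 0.357 and 0.0788). Without library 39, Col11a2 differed by 0.67 (adjusted p = 0.0187) and Col3a1 by 1.16 (adjusted p = 0.0418). Without library 7, the values were 0.68 (adjusted p = 0.0379) and 1.1 (adjusted p = 0.207), so that Col11a2 was called and Col3a1 was not. Both were called without libraries 7 and 39 and with no surrogate variable (0.77, adjusted p = 0.00883, and 1.23, adjusted p = 0.0888). Col11a2 was also D2-biased in proestrus saline (1.27, adjusted p = 0.0138) and in diestrus ketamine (1.49, adjusted p = 0.0159). Col3a1 was called in diestrus ketamine (1.79, adjusted p = 0.00407) and not in proestrus saline (0.98, adjusted p = 0.347).

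Few or no calls fell in housekeeping families or zinc finger proteins, of which few members had a symbol. With 4.11% of all genes called, 0 calls in so few genes says little about a family. The full lists hold 209, 219, 118, 39 and 466 genes, in the order given next. In edgeR with 2 surrogate variables, 0 genes were called among 10 of the respiratory chain (median log2 fold change -0.01), 6 cytosolic ribosomal proteins (0.05), 9 mitochondrial ribosomal proteins (-0.01), 4 proteasome subunits (-0.002) and 24 zinc finger proteins (0.02). The unadjusted p was under 0.05 for 1, 1, 2, 0 and 4 of them. DESeq2 with 2 surrogate variables called 1 cytosolic ribosomal gene and none of the others. That gene family includes Rps10, which had 20.2, 17.7, 16.3, 19.2 and 17.2 CPM in D1 and 35.4, 33.8, 37.2, 20.5 and 13.7 CPM in D2 libraries, so that libraries 7, 15 and 23 were high and 31 and 39 were not. The log2 fold change of Rps10 was 0.64 (edgeR adjusted p = 0.11), and 0.68 (adjusted p = 0.0989) without library 39 and 0.71 (adjusted p = 0.0705) without surrogate variables. Mrps35, of the mitochondrial ribosome, was called with a D1 bias without surrogate variables (-0.20, adjusted p = 0.0584). Ribosomal protein genes have near-identical copies in the genome, and whether reads were shared with them was not tested. Zfp365, a zinc finger protein of neurons, had 230.0 to 275 CPM in D1 and 243 to 307 CPM in D2 libraries, with a log2 fold change of 0.15 (adjusted p = 0.288), and 0.14 (adjusted p = 0.0864) without library 39. Also with 0 calls in edgeR and in DESeq2 with 2 surrogate variables were 13 SNARE, synaptotagmin and vesicle genes (2 with an unadjusted p under 0.05), 6 axon guidance genes (0), 5 antigen presentation genes (0), 4 peptide and opioid receptors (1), 2 serotonin and adrenergic receptors (0) and 2 clock genes (0). Brs3, the bombesin-family receptor called above, was not part of the peptide receptor list. Without library 39, edgeR called 1 vesicle gene, Rab36, a small GTPase (-0.36, adjusted p = 0.0455, and 0.0618 without surrogate variables), and 1 axon guidance gene, the ligand Slit2 (-0.22, adjusted p = 0.0469), both D1-biased. Besides Sst, both other neuropeptide or dense core vesicle genes tested, Vgf and Nmu, were not called. Vgf, a granin-like precursor, had 445 to 656 CPM in D1 and 404 to 555 CPM in D2 libraries.

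A further 13 called genes with a symbol are named here after their values had been seen. The 10 D1-biased ones were Lnx1, Prdx4, Cd200, Uchl1, Ncam2, Pir, Rnf112, Tmtc1, Hebp1 and Masp1, and the 3 D2-biased ones RGD1304622, Itpr2 and Cux1. Cd200, a neuronal ligand of an inhibitory microglial receptor, was higher in every D1 library (258 to 294 CPM in D1, 209 to 247 CPM in D2) by -0.21 (adjusted p = 0.0461). Uchl1, an abundant neuronal deubiquitinating enzyme, was 1649 to 1827 CPM in D1 and 1383 to 1520.1 CPM in D2 libraries and also did not overlap (-0.23, adjusted p = 0.0528). Itpr2, an inositol trisphosphate receptor of the endoplasmic reticulum, was 2.77 to 5.21 CPM in D1 and 5.41 to 9.02 CPM in D2 libraries (0.74, adjusted p = 0.0774). Lnx1, a ubiquitin ligase of Numb, was 18.6 to 23.9 CPM in D1 and 10.9 to 15.8 CPM in D2 libraries without overlap (-0.52, adjusted p = 0.0241). Masp1, a protease of the complement lectin pathway, was also higher in every D1 library (4.97 to 8.27 CPM in D1, 2.30 to 4.58 CPM in D2, -0.94, adjusted p = 0.0988). The adjusted p was near the threshold for several of the 13, and Pir, Rnf112, Hebp1 and Cux1 lost their call without surrogate variables. Without library 7, Cux1 (0.16, adjusted p = 0.145), Pir (-0.41, adjusted p = 0.111) and Tmtc1 (-0.64, adjusted p = 0.108) were not called.

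The lowest adjusted p of all belonged to D1-biased genes with no symbol, while on the D2 side Adora2a was below every gene without one. ENSRNOG00000007552 had 107, 99.7, 109.5, 79.6 and 109.5 CPM in D1 and 9.11, 14, 12.5, 14.7 and 15.0 CPM in D2 libraries. That is a log2 fold change of -2.73 (SE 0.0991, edgeR adjusted p = 1.43e-08), larger than that of any D1-biased gene with a symbol. ENSRNOG00000008943 had 994, 872, 844, 1157 and 881 CPM in D1 and 4368, 4438, 4684, 4972 and 3574 CPM in D2 libraries. Its D2 bias of 2.25 (SE 0.105, adjusted p = 6.95e-07) was close to that of Adora2a. Also in the 2 lowest of each direction were ENSRNOG00000018279 (-1.68, adjusted p = 2.19e-08) and ENSRNOG00000008428 (2.36, adjusted p = 7.74e-07). In all 4 the groups were separate, and each was called in every fit with a library left out.

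The D1 to D2 difference was then read in rats that share no library with these groups. In proestrus saline, 2.60% of 13283 genes were D1-biased and 2.80% D2-biased. Of the 316 D1-biased genes, 314 were tested there, 309 had the same direction (98.4%, against 51.5% of all genes with that direction) and 178 were called with it (56.7% of the 314 and 51.4% of the 346 called there). Of the 230 D2-biased genes, 220 had the same direction (95.7%, against 48.5%) and 122 were called with it (53.0% of the 230 and 32.8% of the 372 called there). A single gene was called in the opposite direction. In diestrus ketamine, 6.60% of 13358 genes were D1-biased and 6.16% D2-biased. There, 306 of 314 D1-biased genes had the same direction (97.5%, against 50.9% of all genes) and 245 were called with it (78.0% of the 314 and 27.8% of the 882 called there). Of the 230 D2-biased genes, 219 had the same direction (95.2%, against 49.1%) and 136 were called with it (59.1% of the 230 and 16.5% of the 823 called there). Some glial and vascular markers were called in diestrus ketamine, all with a D2 bias. They were 2 of 5 astrocyte markers (Gja1 by 0.67, adjusted p = 0.00107, and S100b by 0.23, adjusted p = 0.0933), 1 of 2 oligodendrocyte markers (Mog), 1 of 2 precursor markers (Pdgfra) and 2 of 4 vascular markers (Flt1 by 1.03, adjusted p = 0.00152, and Col3a1). The other precursor marker, C1ql1, leaned to D1 there and was not called (-0.45, adjusted p = 0.132). In proestrus saline 1 of the glial and vascular markers was called, Gjc3 (0.83, adjusted p = 0.0511), also D2-biased. Their part in the shared directions was not tested. In all 3 comparisons 167 genes were D1-biased and 99 D2-biased.

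**Figure D4:**
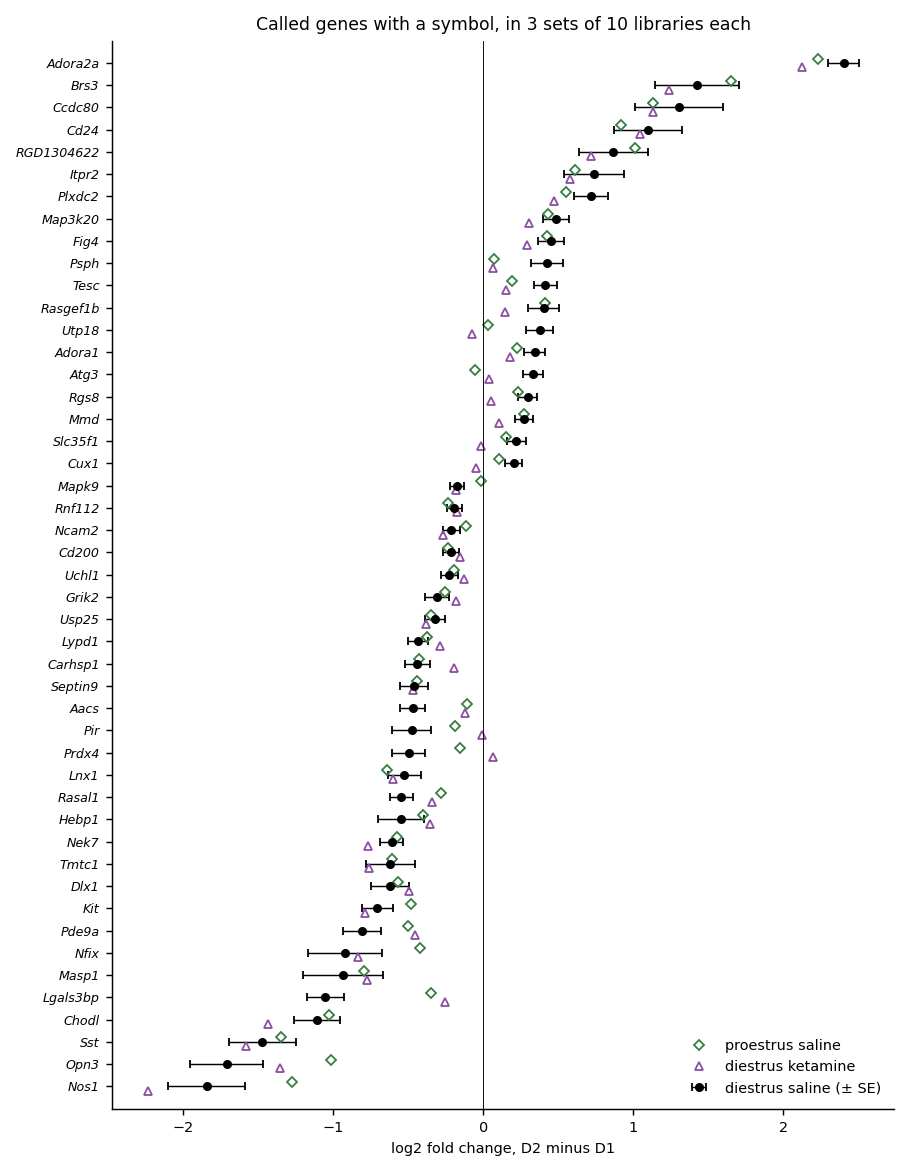
Log2 fold change, D2 minus D1 (horizontal axis), of the 47 called genes with a symbol in diestrus saline (black, ± SE), proestrus saline (green) and diestrus ketamine (purple), 10 libraries each. Most genes lie on the same side of 0 in the 3 sets, from Adora2a at 2.4, 2.23 and 2.12 to Nos1 at -1.84, -1.27 and -2.23, while Atg3, Utp18, Cux1, Slc35f1 and Prdx4 have a value on the other side in at least 1 set.

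Among genes with a symbol, all 28 D1-biased and 18 of the 19 D2-biased genes had the same direction in proestrus saline, and 27 and 16 had it in diestrus ketamine. Both comparisons called 15 of the 28 and 10 of the 19. Cd24 differed by 0.92 in proestrus and 1.05 with ketamine, Brs3 by 1.65 and 1.24, Map3k20 by 0.43 and 0.31, and Nek7 by -0.57 and -0.77, all called. Adora1 was called in both as well (0.23, adjusted p = 0.0948, and 0.18, adjusted p = 0.0439). Tesc was called in neither (0.19, adjusted p = 0.333, and 0.15, adjusted p = 0.322). Rgs8 was called in proestrus (0.23, adjusted p = 0.0877) and not with ketamine (0.05, adjusted p = 0.558). The difference between comparisons was tested by interaction terms. With edgeR, an interaction of cell type with cycle stage in saline-treated rats was called for 0 of 13689 genes (0%). Of these genes 318 had an unadjusted p under 0.05, and DESeq2 called 0. The interaction of cell type with ketamine in diestrus was called for 0 of 13738 genes (0%), 347 had an unadjusted p under 0.05, and DESeq2 with 2 surrogate variables called 1. Both 318 and 347 are fewer genes than chance alone gives at that threshold, so these tests can miss real interactions. The lack of calls therefore does not show that the D1 to D2 differences were the same across stages or treatments.

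The same comparison can be read library by library. For genes called in proestrus saline, each diestrus saline library was given the median of its centred log2(CPM + 1). The medians were taken over the 370 D2-biased and over the 346 D1-biased genes that were also tested in diestrus saline. The calls themselves used none of these 10 libraries. The centre of each gene was taken from these same 10 libraries, so that 0 was placed between the groups by the centring. For the D2-biased genes the medians were -0.28 to -0.15 in the D1 libraries and 0.12 to 0.28 in the D2 libraries. For the D1-biased genes they were 0.16 to 0.26 in the D1 libraries and -0.26 to -0.15 in the D2 libraries. The groups did not overlap. All 10 libraries fell on their own side of 0, library 39 included, which the centring favors. The 812 D2-biased and 881 D1-biased genes called in diestrus ketamine and tested in diestrus saline were used in the same way. All 10 libraries again fell on their own side. Library 39 was nearest to 0 (0.037 and -0.042), and library 7, with the high glial and vascular sums, was farthest on the D2-biased genes (0.42 and -0.20). Those D2-biased genes include the 6 glial and vascular markers called in diestrus ketamine.

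**Figure D5:**
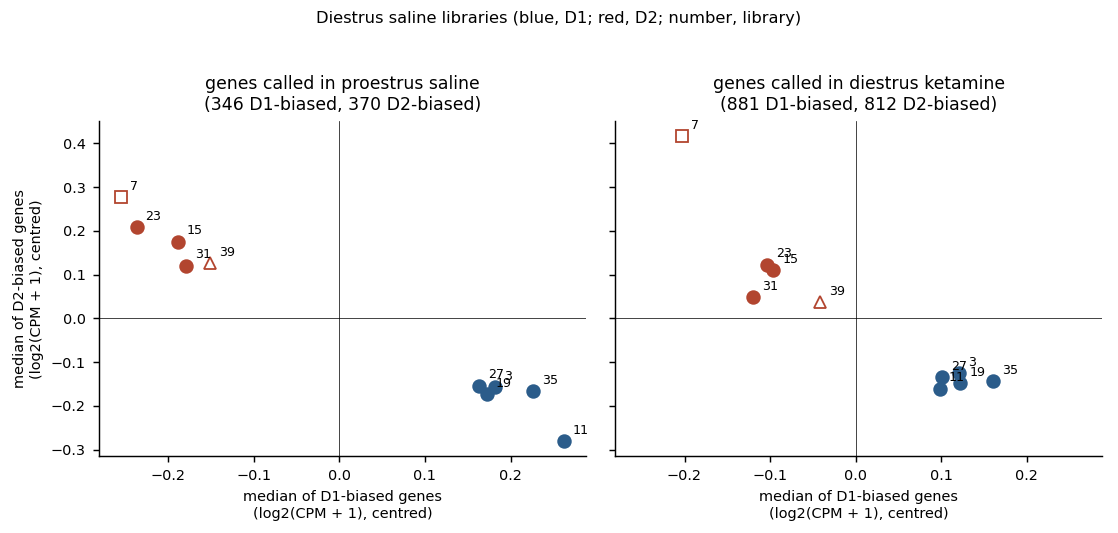
Median centred log2(CPM + 1) of D2-biased genes (vertical axis) against that of D1-biased genes (horizontal axis) in the 10 diestrus saline libraries, for genes called in proestrus saline (left) and in diestrus ketamine (right). D1 libraries (blue) lie at the lower right and D2 libraries (red) at the upper left in both panels, with library 7 (open square) and library 39 (open triangle) at opposite ends of the D2 libraries on the right.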

How the data were processed

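Polyribosome-bound mRNA, pulled down by the HA tag from NAc punches, was sequenced by the authors together with input RNA. The series holds 39 IP libraries in 8 groups, from which 10 libraries were compared. The paper states that a further IP library, of a D2-Cre proestrus ketamine rat, was excluded as an outlier before the statistical analyses. The authors trimmed reads with fastp, quantified them with Salmon against mRatBN7.2 and used tximport for sums per gene. These expected counts were deposited rounded to whole numbers and not normalized by the authors. No aligned reads or transcript lengths were used here.

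After filterByExpr (minimum count 10) and TMM scaling, the robust quasi-likelihood test of edgeR 4.0.16 (under R 4.3.3, with limma 3.58.1) was run with 2 surrogate variables from svaseq (sva 3.50.0), and p-values were adjusted over all genes tested (Benjamini-Hochberg). DESeq2 1.42.0 was an alternative. CPM were scaled by TMM over the 39 libraries. Single genes were also compared by 2-sided exact permutation tests of log2(CPM + 1), whose smallest p with 5 against 5 libraries is 0.00794. Proestrus saline and diestrus ketamine rats were fitted in the same way, and interactions in models of 20 libraries. The steps were tested on simulated data.

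Symbols came from identifier and symbol columns of the authors' supplementary tables, none of whose values was used. A further 4 genes stayed in every fit and are not reported here by name or in the lists. Named were all markers, the 15 genes with a symbol and the 2 without one with the lowest adjusted p in each direction, and of each of 39 lists the called genes and up to 4 others. Of uncalled genes, fold changes are given only for those with an unadjusted p under 0.05 or a call without library 39. The members and lists were chosen with earlier results of these data known. Total counts of the 10 libraries compared were 18271271 to 23530675, and 2396517 in library 39, and those of the other 29 were 16118050 to 43224256. Low genes are the least precise in library 39.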

Additional observations from a re-analysis of the deposited data

Results flagged for a closer look

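In groups of 5 libraries, the distance of the highest or lowest library from its nearest neighbor was compared with the range of the group, for depth, marker sums and the called or nearly called genes with a name. Of 182 groups 18 held a library set apart in this way, where chance gives about 1 in 20, and 9 of the 18 were library 7, 4 library 39, 2 library 3 and 1 each libraries 11, 15 and 19.

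Library 7 was set apart in the D2 group for the summed astrocyte markers (249.6 CPM), oligodendrocyte markers (27.0 CPM) and endothelial, mural and fibroblast markers (32.7 CPM), for the collagens Col11a2 (65.1 CPM) and Col3a1 (14.3 CPM) and for Pdgfra (10.5 CPM). It was also highest of its group for Pde9a (25.9 CPM), Aacs (43.3 CPM) and Rnf112 (231 CPM). All 9 values lay above the other D2 libraries.

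Library 39 was set apart for its total of 2396517 counts, for Usp25 (40.8 CPM, where the other D2 libraries had 30.7 to 32.6 CPM), for Npffr1 (1.25 CPM, against 0.325 to 0.416 CPM) and for Zfp365 (243 CPM, against 288 to 307 CPM). Library 15 was highest of the D2 group for Tmtc1 (37.3 CPM).

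In the D1 group, library 3 was highest for Rasal1 (98.7 CPM) and Prdx4 (15.1 CPM). Library 11 was lowest for Gabra4 (60.2 CPM), and library 19 was highest for the summed endothelial, mural and fibroblast markers (8.52 CPM).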

How the results depend on the processing

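The 546 D1 to D2 calls in diestrus saline became 1076 without surrogate variables, 1250 with 1, 1339 in DESeq2 without surrogate variables, 1113 with at least 10 counts in every library, 854 in a model of all 39 libraries and 1348 with blocks of 8 consecutive library numbers and no surrogate variable, against the 1076 without blocks. Leaving out each library in turn gave 273 to 925 calls, with 273 without library 23, 308 without library 31 and 925 without library 39. Chosen after seeing the data, the fit without libraries 7 and 39 and with no surrogate variable gave 901 calls and that without library 39 and with no surrogate variable 1222. In proestrus saline 718 calls became 440 at a threshold of 0.05, 1362 with 1 surrogate variable, 1090 with the number from num.sv, 1441 in DESeq2 without surrogate variables and 286 to 1697 with a library left out (1697 without library 5, 467 without 13, 376 without 25, 422 without 33 and 286 without 37). In diestrus ketamine 1705 calls became 611 without surrogate variables and 994 in DESeq2 without them. The interaction with cycle stage gave 1 call with the number of surrogate variables from num.sv, and that with ketamine 1 call in DESeq2 with 2 surrogate variables. The causes of these changes were not tested. Other settings kept the counts within 1.5 times.

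Of 156 named genes, the 51 called ones kept their direction in all 1169 alternative values, 202 of which missed the threshold. Of 103 uncalled ones, 47 changed sign under some alternative and 34 were called in some. Among the uncalled ones with an unadjusted p under 0.05, Zfp365 turned to -0.00891 and Gabra4 to -0.042 in the model of all 39 libraries. Pdgfra, at -0.45 with 2 surrogate variables, was 0.12 without surrogate variables, with 1 and in DESeq2 without them, 0.069 in the model of 20 saline libraries, 0.18 in that of 39, 0.032 with blocks and no surrogate variable, and 0.14 without library 39 and surrogate variables. Groups share no replicate numbers in the labels. Each block of 8 library numbers, in the fit given above, held 1 D1 and 1 D2 library, and nothing in the labels says that these rats were paired. Depth limits genes under a few CPM in library 39.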
